A study of Homo sapiens with 6 samples.

Results

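The genes described here were *TXNIP*, the alpha-arrestins *ARRDC1*, *ARRDC2*, *ARRDC3* and *ARRDC4*, and *MLXIP* and *MLXIPL*, which encode the glucose-responsive transcription factors MondoA and ChREBP. They make 7 of the 20824 genes in the table. *TXNIP* was selected on its rise with TBX3 overexpression in these same libraries, among a list of FOXO targets, so its levels and differences are given as a description without a test. The other 6 genes are family members or have a known place upstream of *TXNIP*, and were tested. They were chosen with earlier results of these data known, so their tests may not be independent of that choice. RNA-Seq was carried out on 21NT cells, an established human breast line used as a model of ductal carcinoma in situ, stably transfected with an empty vector (EV) or with a construct for TBX3iso1 or for TBX3iso2, with 2 libraries for each of the 3 lines. TBX3 is a T-box transcription factor with a pair of splice isoforms, and each construct was carried on pcDNA3.1. The lines shared their parent cells and G418 selection, and were grown in medium holding insulin, EGF, hydrocortisone and serum. Each line was a pool of resistant clones, and nothing in the labels says that the 2 libraries of a line came from separate transfections or cultures, so the p-values below measure the spread between these libraries, which may be technical.

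Alpha-arrestins are adaptor proteins that carry an arrestin fold and, in most members, PPxY motifs that bind NEDD4 family ubiquitin ligases, through which they lead membrane proteins to endocytosis or into vesicles. TXNIP also binds and inhibits thioredoxin and limits glucose uptake by acting on the glucose transporters GLUT1 and GLUT4. *TXNIP* and *ARRDC4* are classical targets of MondoA and ChREBP, which bind carbohydrate response elements, paired E-box-like sequences, together with the partner MLX when sugar phosphates accumulate.

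Promoter sequences are shown because *TXNIP* and *ARRDC4* were higher than EV in the same libraries while the other members were not. Whether these sequences bear on the differences was not tested. Windows of 250 bases before each annotated start were read from RefSeq on build GRCh38.p14, which gave 10 windows for the 7 genes. The 4 windows printed here run 5′ to 3′ on the strand of the gene. Those of *TXNIP* and *ARRDC4* belong to the genes that rose relative to EV. That of *ARRDC3* belongs to a gene that was lower, and that of *MLXIPL* to the gene that was lowest relative to EV. Capitals mark the E-box CACGTG, the FOXO core GTAAACA, the CCAAT box or a relaxed pair of CACGNG copies 5 bases apart, each searched on both strands.
TXNIP, chr1:145996580-145996829, minus strand: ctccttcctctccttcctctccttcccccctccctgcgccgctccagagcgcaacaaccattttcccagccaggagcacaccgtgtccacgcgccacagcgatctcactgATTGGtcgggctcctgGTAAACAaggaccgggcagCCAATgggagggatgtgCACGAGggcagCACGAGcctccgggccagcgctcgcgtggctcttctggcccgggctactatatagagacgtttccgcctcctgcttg
ARRDC4, chr15:97960453-97960702, plus strand: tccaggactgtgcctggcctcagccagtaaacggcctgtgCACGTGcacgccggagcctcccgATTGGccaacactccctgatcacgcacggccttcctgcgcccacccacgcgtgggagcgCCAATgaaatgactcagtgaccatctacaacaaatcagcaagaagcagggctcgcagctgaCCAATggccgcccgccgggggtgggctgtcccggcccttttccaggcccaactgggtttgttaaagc
ARRDC3, chr5:91380098-91380347, minus strand: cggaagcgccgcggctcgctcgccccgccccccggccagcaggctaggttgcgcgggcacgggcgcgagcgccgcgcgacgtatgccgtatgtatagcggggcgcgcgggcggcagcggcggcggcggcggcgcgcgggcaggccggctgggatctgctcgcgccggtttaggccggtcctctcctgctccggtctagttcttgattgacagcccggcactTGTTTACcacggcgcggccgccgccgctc
MLXIPL, chr7:73624523-73624772, minus strand: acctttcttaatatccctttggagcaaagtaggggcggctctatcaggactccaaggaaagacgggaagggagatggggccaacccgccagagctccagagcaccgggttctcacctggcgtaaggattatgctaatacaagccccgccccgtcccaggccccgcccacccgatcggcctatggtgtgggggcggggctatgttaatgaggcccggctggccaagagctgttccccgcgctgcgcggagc

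The *TXNIP* window held 1 FOXO core, 2 CCAAT boxes and 1 relaxed pair, with the pair nearest to the start. *ARRDC4* held 1 exact E-box and 3 CCAAT boxes. In *ARRDC3* a FOXO core lay on the reverse strand close to the second of its annotated starts, and *MLXIPL* held none of the sequences searched. *TXNIP* lies on the plus strand of GRCh37, the build of its gene position below, and on the minus strand of GRCh38. Over the 35116 RefSeq windows of the same length, 6.34% held the E-box, 2.98% the FOXO core, 32.0% a CCAAT box and 0.0456%, or 16 windows, the relaxed pair. The exact E-box pair stood in 1 window of all (0.00285%), and the T-box site GGTGTGA in 2.76%, and neither was found in the windows of the 7 genes. The relaxed pair and the CCAAT box overlap no other motif in the windows shown, and both were added after the member windows had been read. A match is a description of letters, and the absence of one concerns these windows alone.

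**Figure D1:**
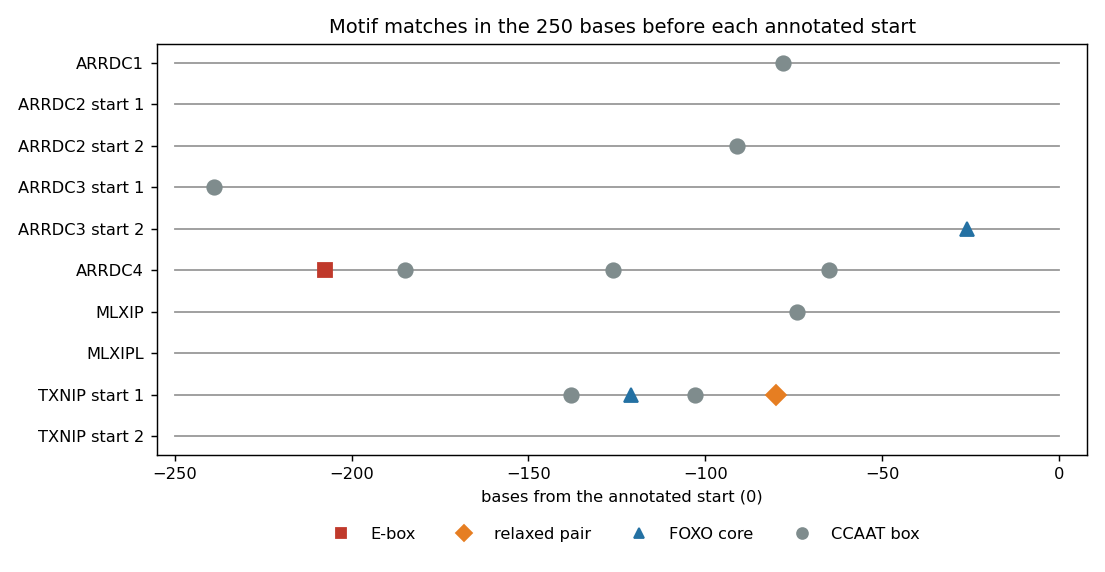
Position of each motif match in the 10 promoter windows of the 7 genes, in bases before the annotated start (x axis, start at 0), with 1 line per window and symbols by motif. The first *TXNIP* window holds 2 CCAAT boxes, 1 FOXO core and 1 relaxed pair, and the *ARRDC4* window 1 E-box and 3 CCAAT boxes.

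The 6 libraries held 43176600 to 54512400 alignments, with a median of 50571450. The values are RPKM, reads scaled to transcript length and library size, so levels of different genes can be set beside each other. *TBX3* itself read 8.52 and 8.24 RPKM with EV, 13.1 and 11.4 with TBX3iso1, and 17.5 and 15.5 with TBX3iso2, and its log2 difference from EV was 0.54 (adjusted p = 0.00378, under the 1.5-fold limit) for TBX3iso1 and 0.97 (adjusted p = 0.000257) for TBX3iso2. Of 7 mammary epithelial markers, 6 had a mean of at least 0.5 RPKM, with *KRT14* near 0. Their summed level was 2251 to 2324 (EV), 1809 to 1999 (TBX3iso1) and 2097 to 2342 RPKM (TBX3iso2). The markers did not all move the same way. *KRT5* was higher than EV, with log2 differences of 1.20 and 1.25, and *CDH1* (-0.70 and -0.51) and *KRT19* (-0.57 and -0.72) were lower. For other cell types the summed levels were 4.57 to 4.83 (EV), 8.08 to 8.65 (TBX3iso1) and 7.11 to 7.51 RPKM (TBX3iso2) for 5 fibroblast markers, and 9.45 to 10.7, 2.23 to 2.61 and 2.24 to 2.56 RPKM for the 3 measured of 4 leukocyte markers, *PTPRC* being at most 0.0102 RPKM. A single gene carried each of these sums, *COL1A1* (4.16 to 7.84 RPKM) and *CD14* (2.22 to 10.7 RPKM), with the other markers of the set at most 0.524 RPKM. In the same order, 3 endothelial markers summed to 7.20 to 7.56, 1.17 to 1.18 and 1.23 to 1.4 RPKM, nearly all of it *PECAM1* (1.14 to 7.46 RPKM), and the 1 measured adipocyte marker, *PLIN1*, to at most 0.396 RPKM. These levels moved with the lines, and their part in the results was not tested. In bulk libraries, a change in the number of cells of a kind and a change of RNA per cell cannot be told apart.

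*TXNIP*, the inhibitor of thioredoxin and of glucose uptake (GRCh37 chr1:145438490-145442635), read 24.3 and 22.9 RPKM with EV, 103 and 102 with TBX3iso1, and 64.7 and 64.3 with TBX3iso2. Every library of either isoform lay above both EV libraries, and both TBX3iso1 libraries above both of TBX3iso2. The means were 23.6 ± 1.01, 102 ± 0.572 and 64.5 ± 0.313 RPKM (SD, n = 2 each), 4.33-fold higher than EV with TBX3iso1 and 2.73-fold with TBX3iso2. On the log2(RPKM + 0.1) scale used throughout, which understates the change of genes with low levels, the differences were 2.11 and 1.45, and TBX3iso2 differed from TBX3iso1 by -0.67. *TXNIP* stood above 86.4% of all genes in the table in EV, 97.3% in TBX3iso1 and 95.1% in TBX3iso2. By size of difference it ranked 42 from the highest rise of 12805 genes with TBX3iso1 and 123 with TBX3iso2. Its order of lines was TBX3iso1 over TBX3iso2 over EV, while *TBX3* was highest in the TBX3iso2 libraries. A relation between the levels of the 2 genes was not tested.

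*ARRDC4*, the alpha-arrestin closest to *TXNIP* in known regulation and in the control of glucose uptake (GRCh37 chr15:98503933-98517063), had the same order at a lower level. It read 4.5 and 4.29 RPKM with EV, 16.6 and 16.2 with TBX3iso1, and 11.1 and 10.6 with TBX3iso2, and no 2 lines overlapped. *ARRDC4* rose 3.74-fold with TBX3iso1, a log2 difference of 1.88 (SE 0.0778, adjusted p = 6.14e-06), and 2.47-fold with TBX3iso2, a log2 difference of 1.29 (SE 0.0778, adjusted p = 2.69e-05). It ranked 64 and 159 from the highest rise among the 12805 genes. With TBX3iso2 it was lower than with TBX3iso1 by a log2 difference of -0.59 (adjusted p = 0.00337), just past the 1.5-fold limit. That last difference fell under the limit with a pseudocount of 1 RPKM (-0.55), without the first TBX3iso1 library (-0.57) and without the second TBX3iso2 library (-0.56). The ratio of *TXNIP* to *ARRDC4* was 5.41 and 5.35 in EV, 6.18 and 6.29 in TBX3iso1, and 5.83 and 6.04 in TBX3iso2.

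**Figure D2:**
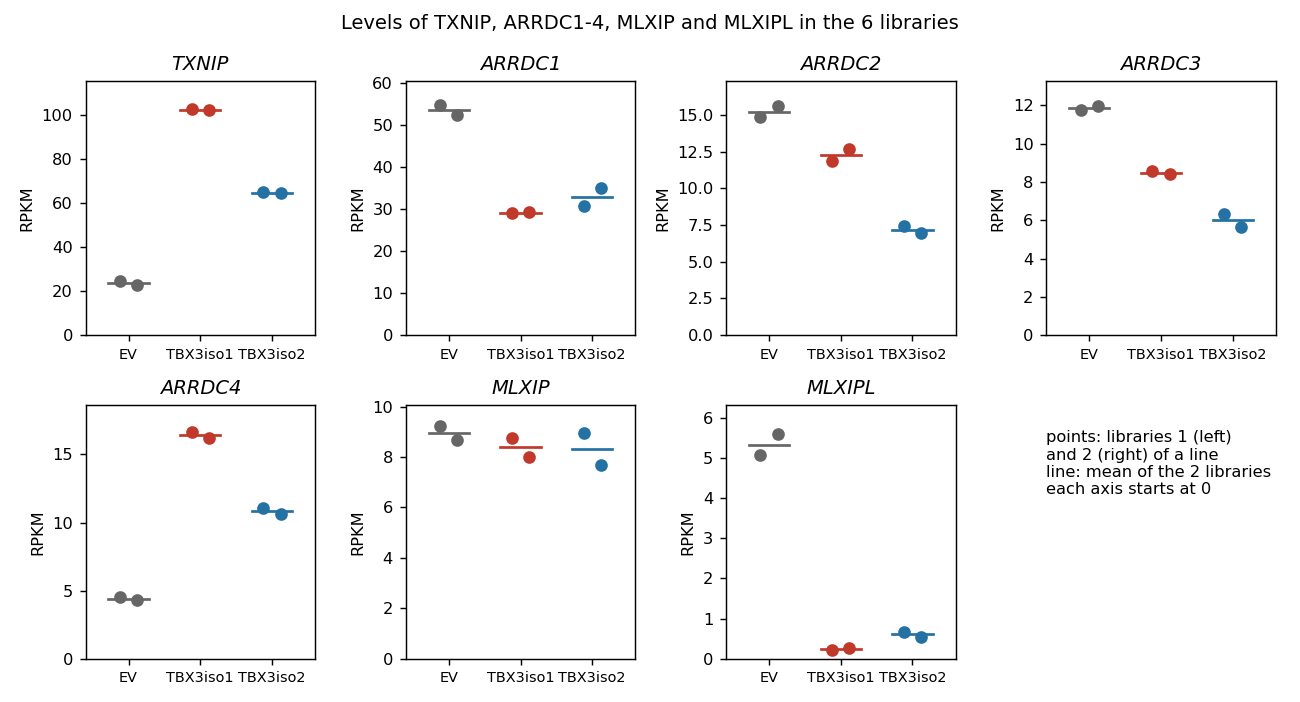
RPKM of each of the 7 genes (1 panel per gene, y axis from 0) in the 6 libraries, grouped by line, with points for libraries and a line at the mean of 2. *TXNIP* (22.9 to 103 RPKM) and *ARRDC4* (4.29 to 16.6 RPKM) are lowest in EV, *ARRDC1*, *ARRDC2*, *ARRDC3* and *MLXIPL* are highest in EV, and the lines overlap for *MLXIP*.

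The other 3 alpha-arrestins were lower in both TBX3 lines. *ARRDC1*, an adaptor for plasma membrane budding and vesicle release (GRCh37 chr9:140500137-140509812), read 54.7 and 52.4 RPKM with EV, 29.1 and 29.2 with TBX3iso1, and 30.7 and 35.0 with TBX3iso2. It was 1.84-fold lower with TBX3iso1, a log2 difference of -0.87 (SE 0.0828, adjusted p = 0.000187), and 1.63-fold lower with TBX3iso2, a log2 difference of -0.70 (SE 0.0828, adjusted p = 0.000479). Between the isoforms the difference was 0.17 (95% interval -0.02 to 0.36, adjusted p = 0.215), so no difference past the threshold was found, and a difference of up to 0.36 lies within the interval. *ARRDC1* overlaps the antisense gene *ARRDC1-AS1* on the opposite strand. That gene read 11.5 and 11.7, 5.17 and 5.01, and 5.86 and 6.46 RPKM in the 3 lines, with log2 differences from EV of -1.17 (adjusted p = 6.22e-05) and -0.90 (adjusted p = 0.0002). The libraries were stranded, but whether counting used the strand is not given in the sources used here, so the reads of these overlapping genes cannot be told apart.

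*ARRDC2*, a member of the family whose role is less well described (GRCh37 chr19:18111941-18124911), read 14.9 and 15.6 RPKM with EV, 11.9 and 12.7 with TBX3iso1, and 7.46 and 6.93 with TBX3iso2. The lines did not overlap, and the TBX3iso2 libraries were lowest. Its log2 difference from EV was -0.31 with TBX3iso1 (SE 0.0818, adjusted p = 0.0182, under the 1.5-fold limit) and -1.07 with TBX3iso2 (SE 0.0818, adjusted p = 7.13e-05). Between the isoforms it was -0.76 (adjusted p = 0.0015), a 1.71-fold lower level with TBX3iso2. *ARRDC3*, known for its part in the trafficking of the beta-2 adrenergic receptor and of integrin beta-4 (GRCh37 chr5:90664448-90679134), read 11.8 and 12, 8.57 and 8.39, and 6.34 and 5.66 RPKM. It too was lowest in TBX3iso2, with log2 differences from EV of -0.48 (SE 0.0858, adjusted p = 0.00334, under the fold limit) and -0.98 (SE 0.0858, adjusted p = 0.000135). Between the isoforms the difference was -0.49 (adjusted p = 0.00983), again under the fold limit. *ARRDC3* is overlapped by *ARRDC3-AS1*, which was at 0.0881 to 0.253 RPKM.

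**Figure D3:**
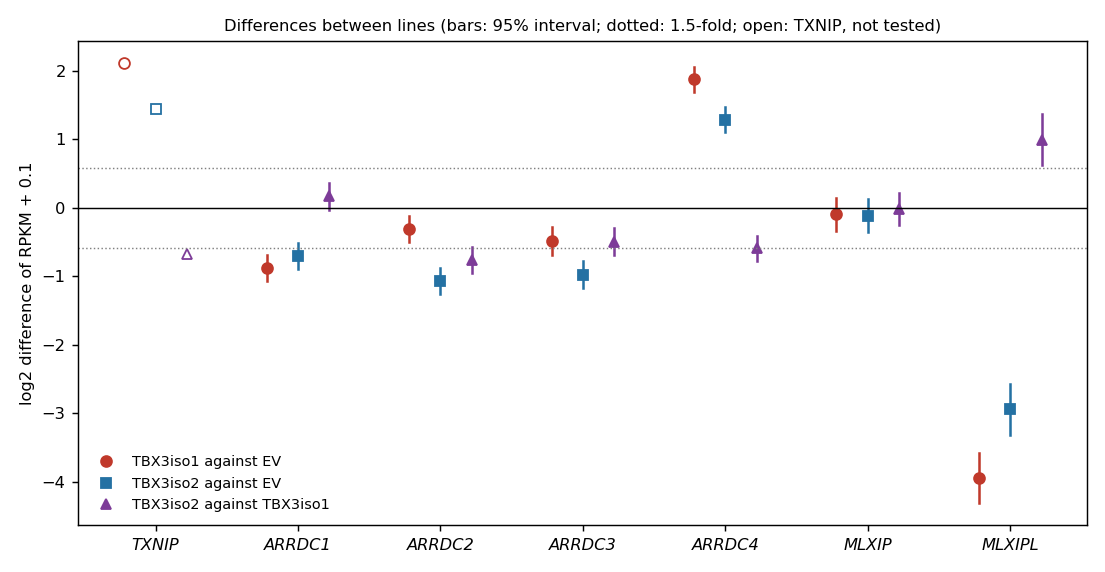
Log2 difference of RPKM + 0.1 (y axis) for each of the 7 genes in 3 comparisons, with bars for the 95% interval and dotted lines at a 1.5-fold change. *ARRDC4* lies at 1.88 and 1.29, *MLXIPL* at -3.94 and -2.94 and *ARRDC1* at -0.87 and -0.70 against EV, and *TXNIP*, drawn open without bars, at 2.11 and 1.45. The bars of *MLXIPL* are from the fit with the filter, which it passed through EV alone, and are a description only.

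The 2 regulators differed from each other. *MLXIP*, encoding MondoA (GRCh37 chr12:122516628-122631894), read 9.25 and 8.66 RPKM with EV, 8.76 and 8.0 with TBX3iso1, and 8.93 and 7.67 with TBX3iso2, and the libraries of the lines overlapped. Its log2 differences were -0.09 (95% interval -0.33 to 0.14, adjusted p = 0.472) and -0.11 (95% interval -0.35 to 0.13, adjusted p = 0.403) from EV, and -0.02 (95% interval -0.25 to 0.22, adjusted p = 0.934) between the isoforms. *MLXIPL*, encoding ChREBP (GRCh37 chr7:73007524-73038873), read 5.07 and 5.58 RPKM with EV, 0.231 and 0.277 with TBX3iso1, and 0.667 and 0.548 with TBX3iso2. It fell 21.0-fold with TBX3iso1 and 8.76-fold with TBX3iso2, by log2 differences of -3.94 and -2.94, and was 2.39-fold higher with TBX3iso2 than with TBX3iso1 (log2 difference 1.00). Its mean over the 4 isoform libraries was 0.431 RPKM, so it passed the 0.5 RPKM filter through the EV libraries alone and had to differ from EV to be tested. Its p-values are therefore taken from the fit without a filter (adjusted p = 0.000919 and 0.00117 against EV, and 0.0344 between the isoforms). The falls of *MLXIPL* ranked 13 and 41 from the lowest difference of the 12805 genes. It entered that set through EV alone, so the ranks are a description only. With a pseudocount of 1 RPKM the differences were -2.33 and -1.98 from EV, and 0.36 between the isoforms, under the fold limit. The ratio of *MLXIP* to *MLXIPL* was 1.82 and 1.55 in EV, 37.9 and 28.9 in TBX3iso1, and 13.4 and 14 in TBX3iso2.

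All 7 genes passed the filter on low values. Across the 5 others, with *TXNIP* left aside for how it was chosen and *MLXIPL* for how it passed the filter, 2 passed the test (adjusted p under 0.05 and fold over 1.5) with TBX3iso1 against EV, 1 higher and 1 lower, where 21.5% of all tested genes passed, 7.46% higher and 14.1% lower. With TBX3iso2 against EV 4 passed, 1 higher and 3 lower, against 21.2% of all tested genes, 8.94% higher and 12.3% lower. With TBX3iso2 against TBX3iso1 2 passed, *ARRDC2* and *ARRDC4*, both lower, against 6.29% of all tested genes, 3.47% higher and 2.82% lower. In each comparison 4 of the 5 had libraries that did not overlap between the lines, against 78.4%, 74.7% and 53.5% of all tested genes. The comparisons with EV share the same EV libraries, and these counts are given as description. The split of calls over all genes moved with scaling, from 955 higher and 1802 lower to 1263 and 1449 (median-ratio scaling) or 1270 and 1305 (quantile normalization) for TBX3iso1 against EV. For TBX3iso2 against TBX3iso1 it moved from 444 and 361 to 351 and 440 or 347 and 433. The direction of every called member was kept under those scalings.

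Summed over the 5 alpha-arrestins, the level was 110.2 and 107 RPKM in EV, 169 and 168 in TBX3iso1, and 120.3 and 123 in TBX3iso2. Without *TXNIP* it was 85.8 and 84.2, 66.2 and 66.5, and 55.6 and 58.3 RPKM. The order of levels was *ARRDC1*, *TXNIP*, *ARRDC2*, *ARRDC3* and *ARRDC4* in both EV libraries, and *TXNIP*, *ARRDC1*, *ARRDC4*, *ARRDC2* and *ARRDC3* in each library of the isoform lines. *TXNIP* thus took the place of *ARRDC1* as the most abundant of the 5 in the TBX3 lines. *TXNIP* made 22.1% and 21.4% of the summed level in EV, 60.8% and 60.5% in TBX3iso1, and 53.8% and 52.4% in TBX3iso2. *ARRDC1* made 49.6% and 48.9%, 17.2% and 17.3%, and 25.5% and 28.6%. *ARRDC5*, a further member of the family, was at 0 to 0.0354 RPKM.

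**Figure D4:**
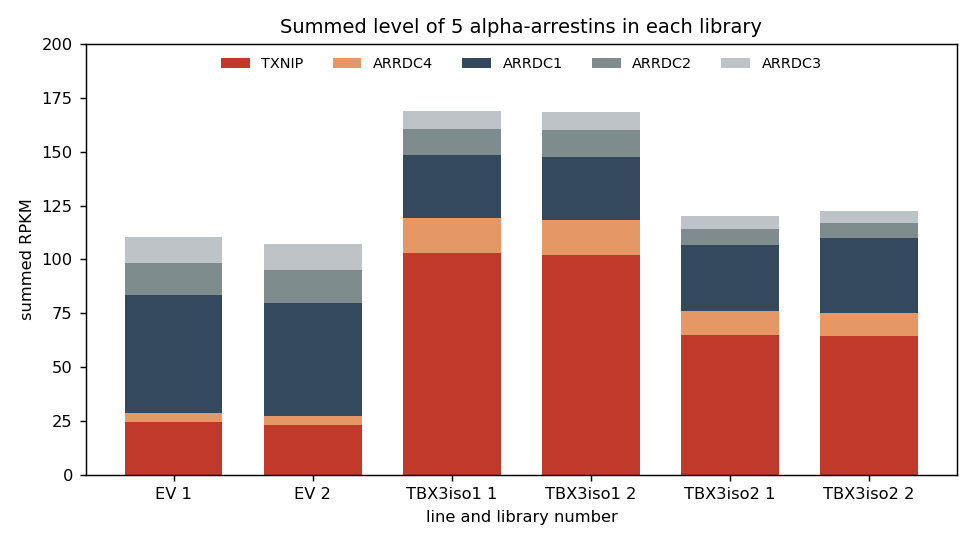
Summed RPKM of 5 alpha-arrestins (y axis from 0) in each of the 6 libraries, stacked by gene. *TXNIP* makes 21.4% to 22.1% of the bar in EV and 52.4% to 60.8% in the isoform libraries, and *ARRDC1* is the larger part in EV.

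Over the 6 libraries, the genes whose pattern lay nearest to that of *TXNIP*, by Euclidean distance of log2(RPKM + 0.1) from the EV mean, were *CXCR4*, a chemokine receptor (distance 0.309), *ARRDC4* (0.398), *CHST10*, a sulfotransferase (0.419), *CLEC2B*, a C-type lectin (0.439), and *RFTN1*, a raft protein (0.457). *ARRDC4* was thus second of the tested genes, whereas *ARRDC1*, *ARRDC2* and *ARRDC3* stood at ranks 11775, 11394 and 11520 and *MLXIPL* at rank 12787. For *ARRDC2*, *ARRDC3* stood at rank 12 (distance 0.299).

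The network around the members was described from 9 gene lists, of which 70 genes were tested. Of these, 5 were higher and 11 lower with TBX3iso1 (22.9% in all), 2 higher and 14 lower with TBX3iso2 (22.9%), and 1 higher and 4 lower between the isoforms (7.14%). These shares were close to those of all tested genes, 21.5%, 21.2% and 6.29%, against which the counts of each list are to be read. Among 11 tested genes of known MondoA and ChREBP targets other than the members, 1 rose and 3 fell with TBX3iso1, and 1 rose and 5 fell with TBX3iso2 (36.4% and 54.5% called). The list medians were -0.35, or -0.22 without the second TBX3iso1 library, and -0.30, against -0.05 and -0.00 over all genes tested. *FASN*, the fatty acid synthase, read 148 and 125 RPKM with EV, 38.8 and 29.5 with TBX3iso1, and 50.8 and 44.1 with TBX3iso2 (log2 differences -2.0 and -1.52, adjusted p = 5.85e-05 and 0.0002). *SCD*, the stearoyl-CoA desaturase, fell with log2 differences of -1.82 and -2.04 (adjusted p = 1.4e-05 and 9.72e-06), and *ACACA*, acetyl-CoA carboxylase, with -1.07 and -0.68 (adjusted p = 0.00101 and 0.0076), the latter call lost without the first EV or the second TBX3iso2 library. *PNPLA3*, a lipid droplet lipase (-0.97, adjusted p = 0.00106), and the circadian repressor *BHLHE41* (-0.93, adjusted p = 0.000478) fell with TBX3iso2, and both were also lower with TBX3iso2 than with TBX3iso1 (-0.63, adjusted p = 0.022, lost under 7 alternatives, and -0.99, adjusted p = 0.00166). The Krüppel-like repressor *KLF10* went the other way, with log2 differences of 0.82 and 0.91 (adjusted p = 0.00145 and 0.000841), as did *TXNIP* and *ARRDC4*.

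Of 9 tested genes of glucose transport, the step TXNIP acts on, and of glucose phosphorylation, 2 rose and 3 fell with TBX3iso1 and 4 fell with TBX3iso2 (55.6% and 44.4% called, beside 21.5% and 21.2% of all tested genes). Both shares include *SLC2A12*, which passed the filter through EV alone, and are raised by it. The list medians were -0.06, whose sign changed with scaling and which ran from -0.17 to 0.02 when 1 library was left out, and -0.32. The transporter GLUT1, *SLC2A1*, was at a mean of 227 ± 12.9, 232 ± 5.14 and 181 ± 2.51 RPKM (SD, n = 2 each), with log2 differences of 0.04 (adjusted p = 0.761) and -0.32 (adjusted p = 0.0181, under the fold limit). GLUT3, *SLC2A3*, read 1.95 and 1.83 RPKM with EV, 4.07 and 3.83 with TBX3iso1, and 0.525 and 0.442 with TBX3iso2. It rose with TBX3iso1 by a log2 difference of 1.02 (adjusted p = 0.000748), fell by 1.78 with TBX3iso2 (adjusted p = 6.29e-05), and was lower with TBX3iso2 than with TBX3iso1 by a log2 difference of -2.80 (adjusted p = 5.31e-05). GLUT12, *SLC2A12*, had log2 differences of -2.10 and -2.29. Its mean over the isoform libraries was 0.498 RPKM, so it too passed the filter through EV alone, and its p-values are those of the fit without a filter (adjusted p = 0.00201 and 0.00161). GLUT10, *SLC2A10*, fell with log2 differences of -1.39 (adjusted p = 0.000274) and -0.63 (adjusted p = 0.00923), the latter call lost under 4 alternatives. Hexokinase 2, *HK2*, fell with log2 differences of -0.65 (adjusted p = 0.0012, call lost with median-ratio scaling and without the second TBX3iso1 library) and -0.80 (adjusted p = 0.000449). The hexokinase-like *HKDC1* rose with TBX3iso1 by 1.79 (adjusted p = 6.88e-05) and was lower with TBX3iso2 than with TBX3iso1 by a log2 difference of -1.37 (adjusted p = 0.00114). Between the isoforms, 1 gene of this list was higher with TBX3iso2, *SLC2A10* (0.76, adjusted p = 0.0132, lost under 3 alternatives), and 2 were lower, *SLC2A3* and *HKDC1*.

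Of the 9 tested genes of the MLX and MAX network, 1 fell with TBX3iso1 and 2 with TBX3iso2, 11.1% and 22.2% called. The list medians were -0.07, or -0.14 without the first EV library, and -0.29, or -0.56 and -0.15 without the first or the second TBX3iso2 library. No call was made between the isoforms by limma (3 at an unadjusted p under 0.05). Of these, *MXD4* (-0.52, adjusted p = 0.0345) and *MXI1* (-0.46, adjusted p = 0.0392) missed only the fold limit. *MLX*, the partner of MondoA and ChREBP, was at 20.9 to 26.8 RPKM with log2 differences of 0.08 (adjusted p = 0.402) and 0.30 (adjusted p = 0.0123, under the fold limit). *MXD1*, a MAX partner, fell with log2 differences of -0.83 and -0.89 (adjusted p = 0.00512 and 0.00367), the first call lost without the second EV library, and *MXD4* with -1.07 in TBX3iso2 (adjusted p = 0.000534). Of 9 tested genes upstream of *TXNIP*, 2 fell with each isoform (22.2% called). The list medians were -0.01 (-0.10 to 0.06 with 1 library left out) and -0.10 (-0.21 to -0.04), and 0 genes were called between the isoforms by limma (1 at an unadjusted p under 0.05). That 1 was *HSF1* (0.26, adjusted p = 0.0485, under the fold limit). *FOXO1* fell with log2 differences of -1.27 and -1.37 (adjusted p = 0.000458 and 0.000313), and *FOXO3* with -0.74 and -0.96 (adjusted p = 0.00113 and 0.000333). *FOXO4*, under the filter and not tested, had means of 0.717 (EV), 0.27 (TBX3iso1) and 0.241 RPKM (TBX3iso2). The mRNA of these FOXO factors was thus lower in the libraries in which *TXNIP* was higher, and a link between them was not tested.

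Of 12 tested genes of the thioredoxin system, 1 rose with TBX3iso1, *TXN*, the thioredoxin that TXNIP binds, with means of 144 ± 7.26, 226 ± 32.0 and 191 ± 46.9 RPKM (SD, n = 2 each) and a log2 difference of 0.65 (adjusted p = 0.0177). That call was lost under 5 of 14 alternatives, and no call was made in the list with TBX3iso2 or between the isoforms (3 and 2 at an unadjusted p under 0.05 by limma). The 3 with TBX3iso2 missed only the fold limit, *SRXN1* (0.52, adjusted p = 0.000959), *PRDX5* (-0.40, adjusted p = 0.0336) and *TXNRD3* (0.31, adjusted p = 0.042). With TBX3iso1 *SRXN1* (0.46, adjusted p = 0.00179) and *TXNRD2* (-0.33, adjusted p = 0.0233) also missed only that limit. No NEDD4 family ligase of the 7 tested passed the test in the 3 comparisons (4, 3 and 5 at an unadjusted p under 0.05 by limma). The 4 and the 3 against EV also had an adjusted p under 0.05 and missed only the 1.5-fold limit. They included *WWP2* with TBX3iso1 (-0.46, adjusted p = 0.00408) and *SMURF2* with TBX3iso2 (0.44, adjusted p = 0.00253). Between the isoforms *SMURF2* (0.43, adjusted p = 0.00976), *ITCH* (0.34, adjusted p = 0.0452) and *SMURF1* (0.36, adjusted p = 0.0495) missed it too. Of 7 ESCRT partners, some of which pinch off the vesicles that ARRDC1 helps form, 1 rose with TBX3iso2, *STAM2* (0.59, adjusted p = 0.0033, lost under 3 alternatives). Against EV, 0 passed the test with TBX3iso1 (3 at an unadjusted p under 0.05 by limma). Of these, *STAM2* (0.45, adjusted p = 0.0112) and *STAM* (-0.40, adjusted p = 0.0291) missed only the fold limit. Among 4 cargo and binding partners, *DDIT4*, the stress-induced mTOR inhibitor that TXNIP binds, read 363 and 371 RPKM with EV, 207 and 214 with TBX3iso1, and 139 and 163 with TBX3iso2. It fell with log2 differences of -0.80 and -1.28 (adjusted p = 0.000708 and 8.23e-05). *NLRP3*, an inflammasome sensor that binds TXNIP, rose with TBX3iso1 by 0.89 (adjusted p = 0.00344), a call lost with a pseudocount of 1 RPKM. Of the other arrestins, *ARRB1*, beta-arrestin 1, fell with TBX3iso1 by 0.68 (adjusted p = 0.00412), a call lost with a pseudocount of 1 RPKM and with quantile normalization. Of the 2 tested in that list limma called 0 with TBX3iso2 and 0 between the isoforms (0 and 1 at an unadjusted p under 0.05). Between the isoforms 0 ESCRT partners and 0 cargo partners were called by limma (1 and 3 at an unadjusted p under 0.05). Of these, *VPS4A* (0.44, adjusted p = 0.0129) and *DDIT4* (-0.48, adjusted p = 0.0201) missed only the fold limit. Against EV the medians of these 5 lists lay between -0.47 and 0.02 with TBX3iso1 and between -0.13 and 0.07 with TBX3iso2. Leaving out 1 library changed the sign of the median for the thioredoxin system with TBX3iso1 (-0.02 to 0.16), and for the ligases (-0.03 to 0.18) and the cargo partners (-0.05 to 0.02) with TBX3iso2. With another scaling the sign changed for the thioredoxin system, the MLX and MAX network and the genes upstream of *TXNIP* with TBX3iso1, and for the ESCRT and cargo partners with TBX3iso2.

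**Figure D5:**
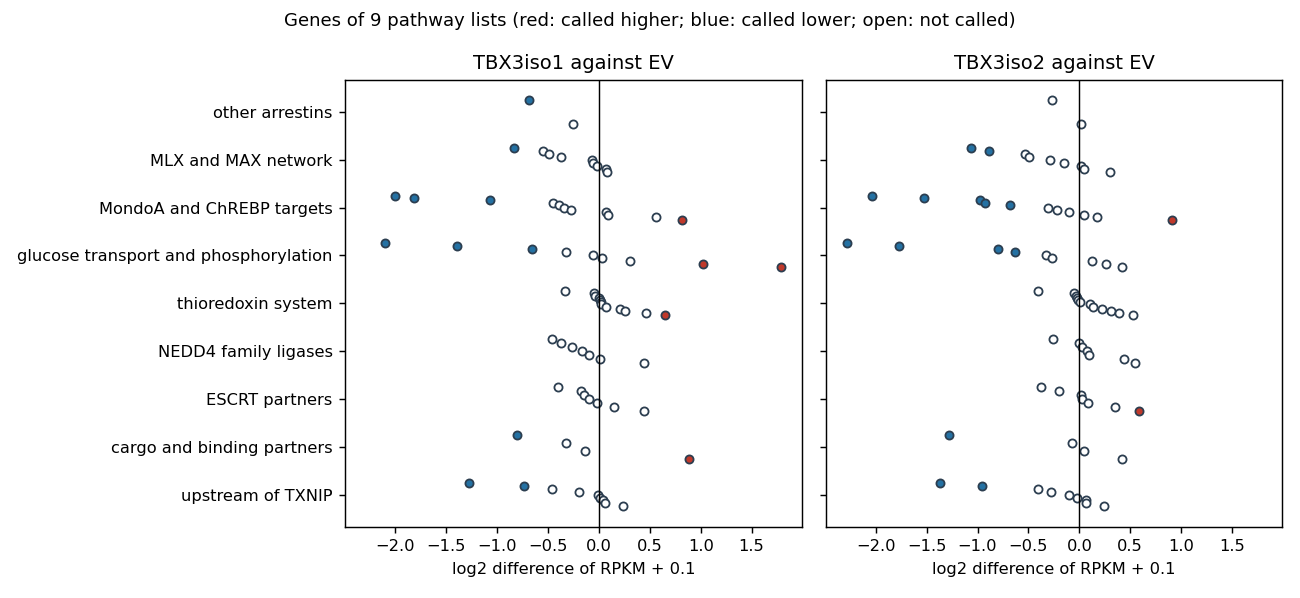
Log2 difference of RPKM + 0.1 from EV (x axis) for each tested gene of 9 lists, TBX3iso1 on the left and TBX3iso2 on the right, with filled points for genes that passed the test. The largest differences lie among the MondoA and ChREBP targets and the glucose transport genes, with *FASN* at -2.0 and *SLC2A12* at -2.10 with TBX3iso1.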

How the data were processed

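RNA-Seq values of 6 libraries, 2 for each of 3 stably transfected 21NT lines, were used. Per the labels and the study's methods, the authors prepared stranded mRNA libraries, aligned paired-end reads to hg19 with TopHat in Galaxy, allowing up to 10 alignments per read, and deposited RPKM computed in Partek Genomics Suite. Versions and the gene annotation are not given in the sources used here, and no gene counts were used. Reads aligned to several places can be shared between similar genes.

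Libraries were grouped by their titles. limma 3.58.1 in R 4.3.3 was fitted to log2(RPKM + 0.1) of 12805 genes whose mean over the libraries reached 0.5 RPKM, with 1 mean per line over all 6 libraries and a trended empirical Bayes spread. P-values were adjusted by Benjamini-Hochberg over all of these genes, and a gene was called at adjusted p under 0.05 and fold over 1.5. The test was checked on data made with known answers. Those data had independent libraries and fewer changed genes than were called here, so the check does not cover deviations shared between libraries. The precision of single values rests on the spread between libraries, with a SD of the log2 replicate difference of 0.182 (EV), 0.242 (TBX3iso1) and 0.273 (TBX3iso2).

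The members and the 9 gene lists were chosen with earlier results of these data known. Named genes were the 7 members, up to 3 called genes per list, direction and comparison, the nearest genes in pattern, *TBX3*, and a few list genes chosen by their role after their values were seen (*SLC2A1* and *MLX*). Gene positions come from GENCODE on GRCh37 and promoter windows from RefSeq on GRCh38.p14. Tried in turn were a pseudocount of 1 or 0.01 RPKM, a filter at 2 RPKM or none, median-ratio scaling, quantile normalization, a fit of the 2 lines alone, a replicate block and leaving out each library.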

Additional observations from a re-analysis of the deposited data

How the results depend on the processing

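Over 14 alternatives, 6 of which left out 1 library, the tested differences of the 6 members other than *TXNIP* gave 252 values, of which 245 kept their direction and side of the threshold, 4 fell short of it and 3 changed sign. In part of these alternatives the difference itself could not change. They are the 2 changes of filter, the fit of the 2 lines alone, the replicate block and leaving out a library of the line not compared. The direction was fixed in advance there, so the 245 overstate how far the results were tried. The 252 values also include *MLXIPL*, which passed the filter through EV alone. The sign changes were all of *MLXIP*, which passed the test in no comparison. They went to 0.0096 for TBX3iso1 against EV with quantile normalization, and lay within a range of -0.125 to 0.0922 between the isoforms when 1 library was left out. The 4 that fell short concern TBX3iso2 against TBX3iso1 alone. They are the *ARRDC4* differences with a pseudocount of 1 RPKM (-0.55), without the first TBX3iso1 library (-0.57) and without the second TBX3iso2 library (-0.56), and the *MLXIPL* difference with a pseudocount of 1 RPKM (0.36). With that pseudocount the members called between the isoforms, *MLXIPL* included, were 1 instead of 3, the genes called for TBX3iso1 against EV 1812 instead of 2757, and those between the isoforms 419 instead of 805. A filter at 2 RPKM gave 504 between the isoforms. The *TXNIP* difference was 2.19 for TBX3iso1 against EV with median-ratio scaling, and between the isoforms -0.72 with that scaling and -0.68 with quantile normalization. Leaving out 1 library gave 2.07 to 2.15, 1.4 to 1.49 and -0.67 to -0.66 for *TXNIP* in the 3 comparisons. The cause of these shifts was not tested. Of 378 counts of called list genes 29 moved, and of 378 list medians 61 moved. List medians changed sign with scaling in 10 of 54 checks.

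With the replicate number as a block, 2838, 2795 and 900 genes were called, against 2757, 2720 and 805, and the same members passed. Deviations of libraries with the same number correlated across 12805 genes at r = 0.22 (EV and TBX3iso1), 0.114 (EV and TBX3iso2) and 0.499 (TBX3iso1 and TBX3iso2). Genes are not independent replicates, and with 2 numbers per line the libraries were taken to share a number only. Depth behind a single gene is unknown from RPKM.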

Other observations

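The relaxed pair in the *TXNIP* promoter window stood in 16 windows of 16 genes among the 35116 read. Of the 15 genes other than *TXNIP*, 9 were tested, and limma called 0 of them in the 3 comparisons (4, 5 and 4 at an unadjusted p under 0.05). At an adjusted p under 0.05 there were 2, 4 and 2, all under the 1.5-fold limit. Over all tested genes 21.5%, 21.2% and 6.29% were called. With 9 genes the count is a description, and a link of the motif to the differences was not tested. Their log2 differences ran from -0.34 (*STX12*) to 0.43 (*TIGD1*) with TBX3iso1 against EV, from -0.53 (*MYL5*) to 0.42 (*RAN*) with TBX3iso2 against EV, and from -0.54 (*MYL5*) to 0.31 (*GFPT1*) between the isoforms. The motif was chosen after the *TXNIP* window had been read, and these genes were named after their values were seen.

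The genes nearest in pattern to *ARRDC4* were *RFTN1* (distance 0.186), *CHST10* (0.234) and *AFAP1L2* (0.276), with *TXNIP* at rank 8. Nearest to *MLXIPL* was *LRRC10B* at a distance of 0.63, followed by *GBP2* (0.926) and *CYP4B1* (1.02). Nearest to *ARRDC1* were *FBXW5* (0.111), *TBKBP1* (0.112) and *WBP2* (0.128), and nearest to *ARRDC2* were *ACSL5* (0.124), *CD24* (0.137) and *CCDC80* (0.166).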
